A study of Mus musculus with 8 samples.

Results

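Dentate granule cell markers were described here through 8 genes, Prox1, Neurod1, C1ql2, C1ql3, Dsp, Lct, Tdo2 and Calb1, out of the 24498 genes in the deposited table. The genes were taken by name as markers of this cell type, with earlier results of these data known. All 8 had at least 1 read in each of the 8 libraries. The study crossed an injected virus with a training session in male C57BL/6J mice, 10 to 12 weeks old, and sequenced polyadenylated RNA of the dorsal hippocampus. All mice were given an adeno-associated virus (AAV2/9) into this region 3 weeks earlier. The control groups, labelled WT, received a vector with EGFP under a CMV promoter, so they are not uninjected mice. The knockdown groups, labelled ACSS2-, received a vector in which U6 drives a hairpin RNA that targets Acss2 beside CMV-driven EGFP. Neither promoter is specific to granule cells. Untrained mice stayed in the home cage, whereas trained mice explored 3 objects in 3 trials of 6 min and were killed 30 min later. There were 4 groups of 2 libraries each. How many mice went into a library is not in the labels, so the p-values measure the spread between libraries only, and that spread may be technical in part.

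Granule cells are the principal neurons of the dentate gyrus. They receive the perforant path from the entorhinal cortex and send their axons, the mossy fibres, to hilar mossy cells and CA3 pyramidal neurons. They are among the few neurons that are still born in the adult rodent brain, and the homeobox factor Prox1 keeps their identity apart from that of CA3 neurons. A hippocampal dissection holds granule cells together with the CA fields, glia and vessels. In such bulk tissue, fewer granule cells and less marker RNA per granule cell cannot be told apart.

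Promoters are shown for 3 markers, Prox1, which sets the identity of the cell, and C1ql2 and Dsp, the markers with the widest range over the libraries. Each window runs from 250 bases before to 50 bases after a RefSeq start (GRCm38.p6), 5′ to 3′ on the gene's strand, and capitals mark a match to an E-box, the kind of site bound by factors such as NEUROD1. The E-box letters searched were CAGATG, its relative CAGGTG, and the palindrome CAGCTG, on both strands. Prox1 lies at chr1:190170778-190171077 on the minus strand, C1ql2 at chr1:120340332-120340631 on the plus strand and Dsp at chr13:38151044-38151343 on the plus strand.
Prox1: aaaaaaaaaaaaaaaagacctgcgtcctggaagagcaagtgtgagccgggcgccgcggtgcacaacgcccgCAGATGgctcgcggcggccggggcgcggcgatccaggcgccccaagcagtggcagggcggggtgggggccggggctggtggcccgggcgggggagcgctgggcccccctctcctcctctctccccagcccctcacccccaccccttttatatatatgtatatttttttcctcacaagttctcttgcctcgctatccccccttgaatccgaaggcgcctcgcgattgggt
C1ql2: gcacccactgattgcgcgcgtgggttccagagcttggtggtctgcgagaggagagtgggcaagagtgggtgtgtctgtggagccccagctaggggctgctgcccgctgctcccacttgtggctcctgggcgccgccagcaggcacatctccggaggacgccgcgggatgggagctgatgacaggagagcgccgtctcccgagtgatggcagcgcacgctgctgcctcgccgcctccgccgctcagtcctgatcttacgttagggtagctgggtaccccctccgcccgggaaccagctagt
Dsp: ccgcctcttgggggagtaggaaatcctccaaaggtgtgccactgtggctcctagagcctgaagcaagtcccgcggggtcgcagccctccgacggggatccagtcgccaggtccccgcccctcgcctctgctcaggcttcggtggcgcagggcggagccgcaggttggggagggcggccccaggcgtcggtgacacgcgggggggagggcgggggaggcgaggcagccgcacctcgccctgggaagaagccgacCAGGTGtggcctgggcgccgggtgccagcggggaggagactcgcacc
The Prox1 window held 1 CAGATG and the Dsp window 1 CAGGTG, and the C1ql2 window held none of the 3 motifs. RefSeq windows were matched for 7 of the 8 markers (all but Calb1), and 2 of the 7 genes held a motif on either strand, against 47.4% of all genes with a window. Prox1 has a further window at another start, which held none. Over all 32851 promoter windows, 17.2% held CAGATG, 20.2% CAGGTG, 16.3% CAGCTG and 44.3% at least 1 of the 3. All 3 motifs share the CANNTG core. These matches describe letters in the windows and were not tested as binding sites.

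Libraries are named by the end of their column name. Reads in genes numbered 6537749 to 9863728 in 6 libraries, 1484318 in KD.251 (trained knockdown) and 272456 in KD.255 (untrained knockdown). Values are normalized read counts, that is whole reads divided by a size factor, and the limit that a count of 0 sets, 3 reads, equals 46.7 of them in KD.255, 8.65 in KD.251 and at most 1.98 elsewhere. Acss2 was at 58.2 and 82.0 (untrained control), 87.4 and 67.5 (trained control), 25.0 and 15.6 (untrained knockdown) and 25.6 and 57.7 (trained knockdown). It was lower in all 4 knockdown libraries, at 31.0 ± 18.4 against 73.8 ± 13.4 (SD, n = 4 each; exact permutation test, two-sided p = 0.0286, the smallest that 4 against 4 can give), although KD.251 at 57.7 was just under the lowest control library. Control libraries eGFP.250 and eGFP.254 stood apart in choroid plexus RNA, eGFP.250 the more so. In the trained control library eGFP.250 the summed level of 6 choroid plexus markers was 59590, against 15561 in eGFP.254 and 230 to 1907 in the other 6 libraries. The single comparisons below are therefore also given without eGFP.250 or KD.255 where they rest on them.

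Both transcription factors were lowest in the same library. Prox1 (chr1:190118035-190170714, GRCm38, minus strand), the factor that specifies granule cells, was at 1005 in eGFP.254 and 587 in eGFP.268 (untrained control), 330 in eGFP.250 and 750 in eGFP.266 (trained control), 935 in KD.253 and 575 in KD.255 (untrained knockdown), and 957 in KD.249 and 793 in KD.251 (trained knockdown). The lowest value came from eGFP.250, and the trained knockdown libraries were both above the trained control libraries. Neurod1 (chr2:79452521-79456751, minus strand), a bHLH factor needed for granule cell differentiation, was at 247 and 186, 125 and 178, 219 and 218, and 207 and 176 in the same order. Both trained control libraries were below both untrained control libraries, and its range, 125 to 247, was the narrowest in ratio of the 8 genes except Calb1. Across both vectors Neurod1 was at 172 ± 34.4 in trained and 218 ± 25.1 in untrained libraries (SD, n = 4 each; exact two-sided permutation p = 0.0571), with overlapping groups. Transcripts on the opposite strand are annotated over Prox1, Neurod1, C1ql3 and Dsp, and Cerkl lies over Neurod1 on the same strand with a mean of 20.7. The strand setting of the counting is not given in the sources used here, so reads of overlapping genes cannot be told apart.

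The secreted C1q-like proteins, which granule cells release at mossy fibre synapses, did not share 1 pattern. C1ql2 (chr1:120340582-120343174, plus strand) was at 690 and 372 in untrained control, 179 and 382 in trained control, 381 and 124 in untrained knockdown and 426 and 418 in trained knockdown libraries. It spanned the widest range of the 8 markers, and its lowest value, in KD.255, rested on 8 reads (95% exact Poisson interval 53.7 to 245, counting error only). C1ql3 (chr2:13003457-13011806, minus strand), which is also made by many neurons outside the dentate gyrus, was at 745 and 955, 899 and 632, 600 and 684, and 687 and 1321 in that order. It was not lowest in eGFP.250 or KD.255, and its highest value came from KD.251.

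Dsp (chr13:38151294-38198577, plus strand) encodes desmoplakin, which links desmosomes to intermediate filaments and in the hippocampus marks granule cells. It was at 677 and 553.5 in untrained control, 277 and 802 in trained control, 630 and 218 in untrained knockdown and 1048 and 698 in trained knockdown libraries. The trained control pair differed from each other by more than the means of the control groups did, 540 ± 371 in trained against 615 ± 87.3 in untrained libraries (SD, n = 2 each). The value of 218 in KD.255 rested on 14 reads (119 to 365).

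Both enzymes were highest in the trained knockdown libraries. Lct (chr1:128284756-128328318, minus strand) encodes lactase, an intestinal disaccharidase that is also transcribed in granule cells. It was at 311 and 274, 131 and 265.98, 285 and 140, and 319 and 464 in the order above. Both trained knockdown libraries exceeded the other 6, KD.249 by little (319 against 311 in eGFP.254). Tdo2 (chr3:81957090-81976202, minus strand) encodes tryptophan 2,3-dioxygenase, which opens the kynurenine pathway and marks mature granule cells. It was the weakest marker, at 36.1 and 34.2, 10.3 and 29.7, 27.7 and 31.1, and 40.9 and 46.2. Its trained knockdown libraries were again the highest 2, with 80 and 16 reads, whereas the value in KD.255 came from 2 reads (3.77 to 112). The share of tested genes with these 2 libraries highest was not counted.

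Calb1 (chr4:15881264-15908064, plus strand) encodes calbindin, a calcium buffer of mature granule cells that CA1 pyramidal neurons and interneurons also make. It was at 367 and 651, 655 and 362, 341 and 513, and 416 and 586. The groups overlapped in all 4 comparisons of 2 against 2 libraries, and the library with the lowest Prox1, eGFP.250, had the highest Calb1.

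**Figure D1:**
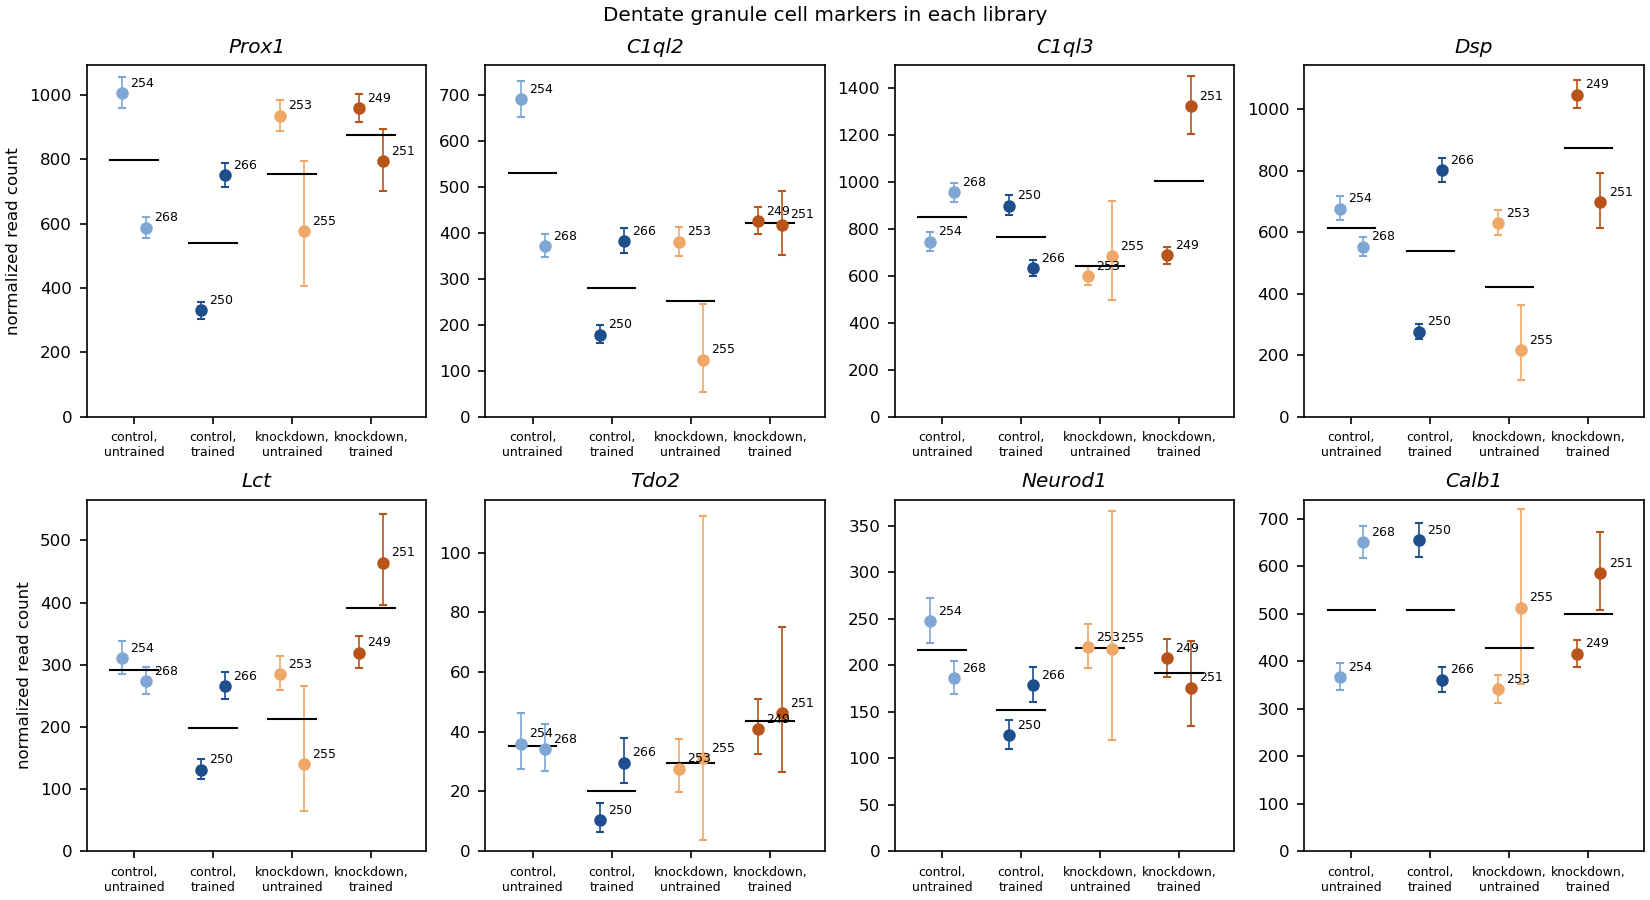
Normalized read count (y axis, from 0) of each of the 8 markers in each library (points, with the number in the library's name) of the 4 groups (x axis), with the group mean as a bar and the 95% exact Poisson interval as whiskers, which cover counting error only. Library eGFP.250 is lowest for Prox1, Lct, Tdo2 and Neurod1 and highest for Calb1, and the whiskers are widest in KD.255, which has 272456 reads in genes.

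Per kilobase of exon (the union of a gene's GENCODE exons), the mean normalized count was 322 for C1ql3, 186 for C1ql2, 100.4 for Calb1, 88.4 for Prox1, 71.3 for Neurod1, 63.5 for Dsp, 42.7 for Lct and 8.25 for Tdo2. Neighbours in this order had overlapping ranges over the 8 libraries, with the exception of Lct (20.5 to 72.5) and Tdo2 (2.66 to 11.9). The marker with the most RNA per length, C1ql3, was also 1 of the 2 that were not low in eGFP.250.

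Across libraries, 6 of the markers had their lowest or second lowest value in eGFP.250, and C1ql3 and Calb1 did not. Prox1, Lct, Tdo2 and Neurod1 were lowest in eGFP.250, and C1ql2 and Dsp were lowest in KD.255 and second lowest in eGFP.250. Being lowest in eGFP.250 held for 9.95% of all tested genes and being lowest in KD.255 for 28.7%. The summed level of these 6 genes was 49.9% of the control mean in eGFP.250 and 62.0% in KD.255, against 95.2% to 142% in the other 6 libraries. In KD.255 Prox1, C1ql2, Dsp and Lct were below the control mean, and Tdo2 (2 reads) and Neurod1 (14 reads) were above it. The sum of C1ql3 and Calb1 was 118% of the control mean in eGFP.250 and 91.0% in KD.255, and ranged from 71.5% in KD.253 to 145% in KD.251. This division of the markers was chosen after their values were seen, and it has no test.

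**Figure D2:**
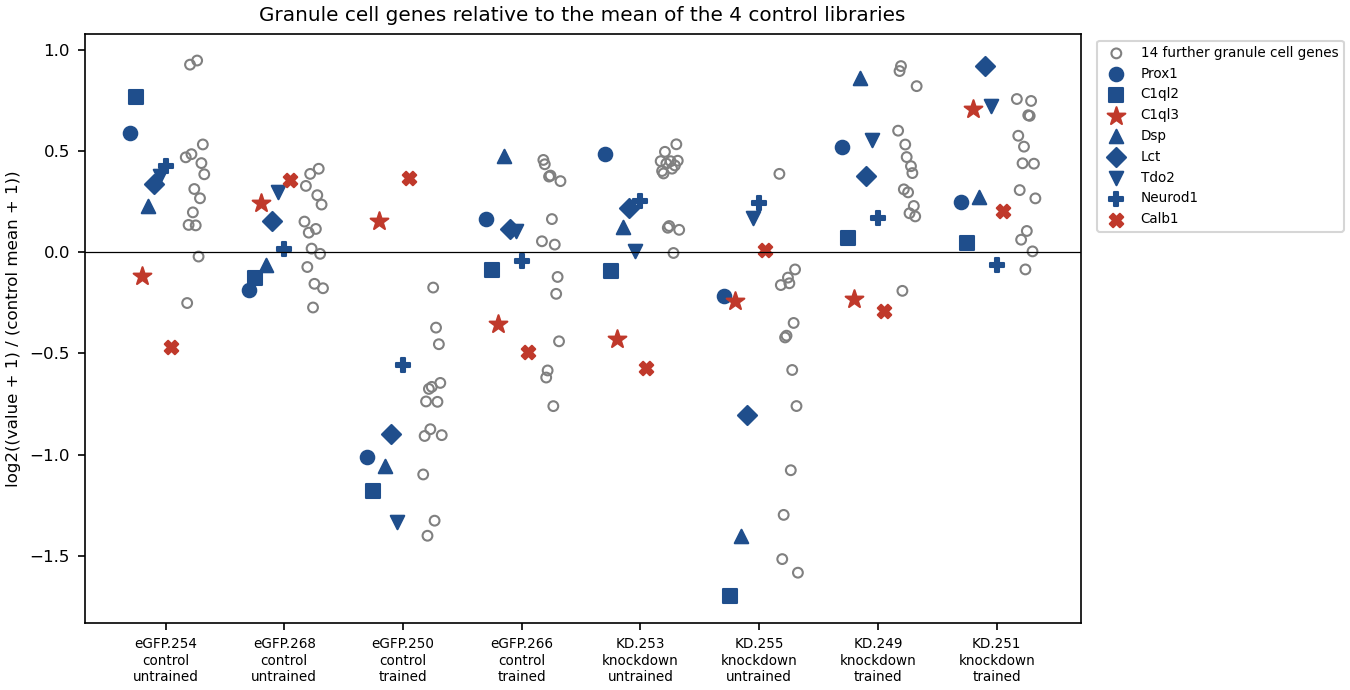
Log2 ratio of each gene to the mean of the 4 control libraries, on the scale of value + 1 (y axis), in each library (x axis), for the 8 markers (filled symbols, C1ql3 and Calb1 in red) and 14 further granule cell genes (open circles). In eGFP.250 the 6 blue markers all lie below 0 and C1ql3 and Calb1 above it, and all 14 further genes lie below 0 in eGFP.250.

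The first comparison asked how the markers responded to object training under the control vector. All 8 markers were lower on average in trained than in untrained control libraries, by a median log2 difference of −0.57 (over all tested genes the median was 0.01, and 47.9% were lower). The size ran from −0.95 for C1ql2 (SE 0.53) and −0.95 for Tdo2 (SE 0.52) through −0.64 for Lct (SE 0.41), −0.63 for Prox1 (SE 0.41), −0.52 for Neurod1 (SE 0.26) and −0.38 for Dsp (SE 0.56) to −0.16 for C1ql3 (SE 0.32) and −0.01 for Calb1 (SE 0.38). In 3 of the 8, Lct, Tdo2 and Neurod1, the groups did not overlap, and such a separation in this direction was seen in 14.3% of tested genes. None of the 8 passed an adjusted p of 0.05 in limma (lowest adjusted p 1.00 after rounding), where 0% of tested genes passed. Without eGFP.250, the median was −0.25, with 7 markers lower and Dsp higher. Without eGFP.254 it was −0.38, with 8 lower. The pair of libraries eGFP.250 and eGFP.254, which also held the 2 highest choroid plexus sums, differed by a median of −1.26, with 6 markers lower, whereas eGFP.266 and eGFP.268 differed by −0.05, with 5 lower. The part of choroid plexus tissue in this difference was not tested.

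Under the knockdown vector the markers pointed the other way. In trained knockdown libraries 7 of the 8 were higher than in untrained ones, with a median log2 difference of 0.56 (0.04 over all tested genes, of which 54.1% were higher). Dsp differed by 1.20 (SE 0.56), C1ql2 by 0.95 (SE 0.53), Lct by 0.94 (SE 0.41), C1ql3 by 0.57 (SE 0.32), Tdo2 by 0.55 (SE 0.52), Prox1 by 0.25 (SE 0.41) and Calb1 by 0.24 (SE 0.38). Neurod1 was the exception at −0.19 (SE 0.26). The groups did not overlap for C1ql2, C1ql3, Dsp, Lct and Tdo2, 5 of the 8, against 16.4% of tested genes in this direction, and Neurod1 was lower without overlap, as were 14% of tested genes. None passed in limma (lowest adjusted p 0.802), and 0% of tested genes did. Without KD.255 the median was 0.44, with 6 markers higher, and Prox1 stood at −0.10. The deeper libraries KD.249 and KD.253 differed by a median of 0.18, with 7 markers higher. Without KD.251, whose Acss2 was nearest to the control range, the median was 0.43, with 6 higher.

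The knockdown vector was next compared with the control vector in each training state. In untrained mice 7 of the 8 markers were lower with the knockdown vector (median −0.32, against −0.05 over all tested genes, of which 55.2% were lower), or 8 of 8 with TMM scaling and 6 of 8 in edgeR. C1ql2 differed most, by −1.21 (SE 0.53), followed by Dsp at −0.72 (SE 0.56), Lct at −0.54 (SE 0.41) and C1ql3 at −0.40 (SE 0.32). Tdo2 at −0.25 (SE 0.52), Calb1 at −0.22 (SE 0.38), Prox1 at −0.07 (SE 0.41) and Neurod1 at 0.03 (SE 0.26) differed by less than their errors. C1ql3 and Tdo2, 2 of the 8, were lower without overlap, as were 16.8% of tested genes, and for Tdo2 this rested on 2 reads in KD.255. Without KD.255 the median was −0.18, 5 markers were lower and Dsp stood at 0.04. Without eGFP.254 the median was −0.51, with 6 lower. None passed in limma (lowest adjusted p 0.816), where 0% of tested genes passed. C1ql2 passed in limma (adjusted p 0.0274) when KD.253 was left out, which leaves the 8 reads of KD.255 to stand for the untrained knockdown group. That fit called 1279 genes, against 0 with all 8 libraries.

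In trained mice all 8 markers were higher with the knockdown vector (median 0.75), as were 49.3% of all tested genes. In edgeR and DESeq2 it was 7 of 8, with Calb1 at −0.03. Tdo2 differed by 1.25 (SE 0.52), Lct by 1.04 (SE 0.41), Dsp by 0.86 (SE 0.56), Prox1 by 0.81 (SE 0.41) and C1ql2 by 0.69 (SE 0.53). Neurod1 at 0.35 (SE 0.26), C1ql3 at 0.34 (SE 0.32) and Calb1 at 0.02 (SE 0.38) differed less. For Prox1, C1ql2, Lct and Tdo2, 4 of the 8, the groups did not overlap, as for 14.4% of tested genes in this direction. None of the 8 passed in limma (lowest adjusted p 1.00), where 0.00789% of tested genes did. Without eGFP.250 the median was 0.33, with 8 higher. Without eGFP.266 it was 1.31, with 7 higher and Calb1 at −0.41. Without KD.251 it was 0.74, with 6 higher, C1ql3 at −0.13 and Calb1 at −0.23.

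**Figure D3:**
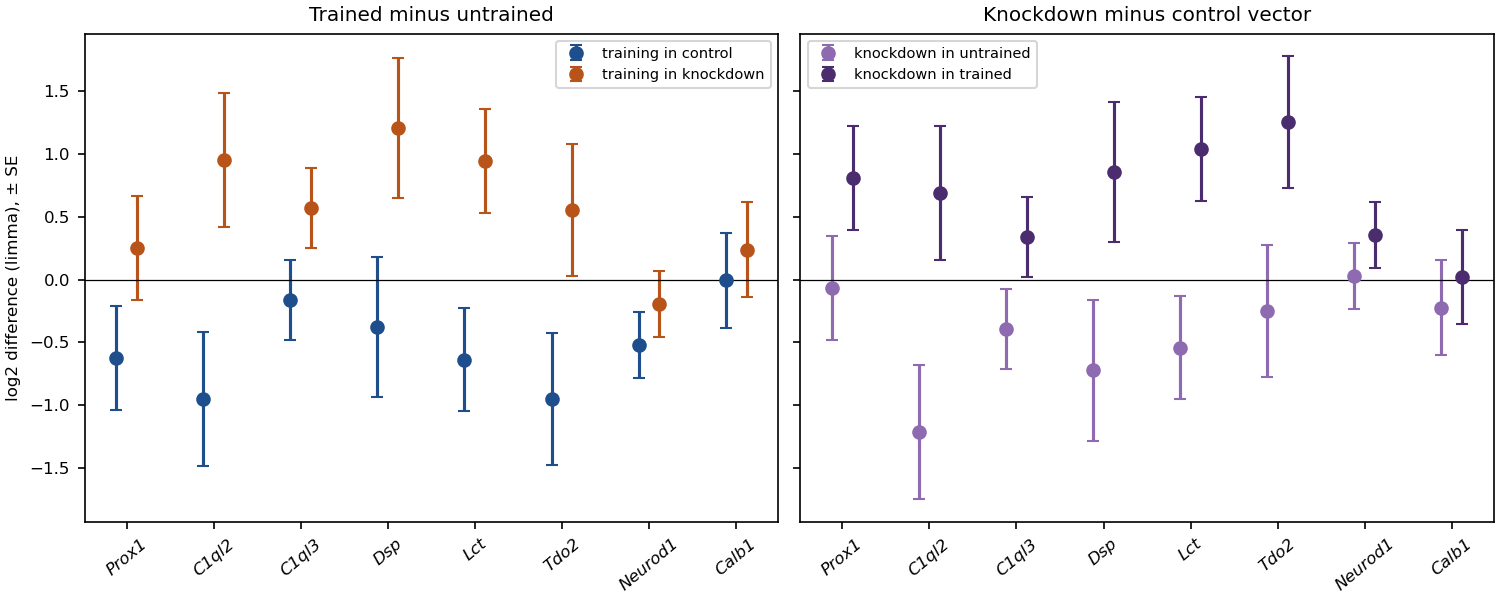
Log2 difference of each marker (x axis) from limma on log2(normalized count + 1), with the standard error as whiskers (y axis), for trained minus untrained libraries (left panel, by vector) and knockdown minus control vector (right panel, by training state), 2 libraries against 2. All 8 training differences lie at or below 0 with the control vector, and 7 of 8 lie above 0 with the knockdown vector.

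The difference between the training responses under the 2 vectors was tested as an interaction. It was positive for all 8 markers, with a median of 1.19 on the log2 scale, against 0.03 over all tested genes, of which 52.9% were positive. C1ql2 had an interaction of 1.90 (SE 0.75), Lct of 1.58 (SE 0.58), Dsp of 1.58 (SE 0.79), Tdo2 of 1.50 (SE 0.74), Prox1 of 0.87 (SE 0.58), C1ql3 of 0.73 (SE 0.45), Neurod1 of 0.33 (SE 0.37) and Calb1 of 0.24 (SE 0.53). None passed in limma (lowest adjusted p 1.00), where 0% of tested genes passed. The unadjusted p was below 0.05 for C1ql2 (0.0324) and Lct (0.0233), a level that 0.883% of tested genes reached. Without eGFP.250 the median was 0.80 and without KD.255 0.82, both with 8 positive, and without both of these libraries it was 0.56, with 7 markers positive and Prox1 at −0.07. Without KD.251 it was 1.16, with 7 positive. C1ql2 passed (adjusted p 0.0365) when KD.253 was left out, in a fit that called 692 genes. Lct and Tdo2 were lower without overlap after training with the control vector and higher without overlap with the knockdown vector, as were 1.14% of tested genes. The 4 comparisons share their libraries, so these values are not independent of each other.

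Averaged over the other factor, the signs of the markers were mixed and depended on which libraries entered. Between knockdown and control vector 5 were higher and 3 lower (median 0.13), where 44.3% of tested genes were higher. Without KD.255 it was 7 higher (median 0.39), without eGFP.250 4 higher (0.02) and without KD.251 4 higher (0.0045). Between trained and untrained libraries 4 were higher and 4 lower (median 0.06), where 55.1% of tested genes were higher. Without KD.251 it was 7 lower (median −0.15), without KD.255 6 lower (−0.26), without both of these shallow libraries 7 lower (−0.37) and without eGFP.250 6 higher (0.21). In limma 0.103% of tested genes passed for the averaged knockdown comparison and 0% for averaged training, and none of the markers did (lowest adjusted p 0.873 in both). In exact permutation tests of 4 against 4 libraries, two-sided, p ranged from 0.314 to 0.943 for the knockdown comparison and from 0.0571 to 0.971 for training, and the groups overlapped for all 8 genes. At an unadjusted p under 0.05, limma reached 2 markers in the interaction, Lct and Tdo2 for the knockdown in trained mice (2.36% of tested genes), C1ql2 for the knockdown in untrained mice (4.5%) and Lct for training in knockdown mice (4.48%). It reached 0 markers for training in control mice (1.43% of tested genes), averaged training (4.86%) and averaged knockdown (5.59%). At this level edgeR reached C1ql2 and Lct in the interaction (0.773% of tested genes), Lct and Tdo2 for the knockdown in trained mice (4.83%) and C1ql2 for training in control mice (3.34%), and 0 markers for training in knockdown mice (2.27%), the knockdown in untrained mice (3.92%), averaged training (6.92%) and averaged knockdown (7.85%). DESeq2 reached Lct in the interaction (0.41%) and for the knockdown in trained mice (3.21%), and 0 markers for training in knockdown mice (1.27%), training in control mice (1.83%), the knockdown in untrained mice (2.74%), averaged training (6.14%) and averaged knockdown (7.03%). Neither edgeR nor DESeq2 gave any of the 8 an adjusted p below 0.05 in any of the 7 comparisons (lowest 0.738 and 0.821). Over all tested genes edgeR called 0.962% for averaged knockdown, 0.181% for the knockdown in untrained and 0.0315% in trained mice, and 0% in the other 4 comparisons. DESeq2 called 1.54%, 0.434% and 0.26% in those 3, 0.0631% for averaged training, 0.0315% for training in control mice and 0% in the other 2.

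A list of 14 further granule cell genes was written with earlier results of these data known, so it is not independent support. Its 14 genes followed the libraries in the same way. Of these, 10 were lowest in eGFP.250 and 4 in KD.255. Fam163b was at 391 in eGFP.250 and 420 in KD.255, against 673 to 1965 in the other libraries. Stxbp6, which encodes a syntaxin-binding protein, was at 539 and 498 against 621 to 1220, and Sema5a, a guidance molecule, at 463 and 607 against 670.2 to 1298. Dock10, a guanine nucleotide exchange factor, was at 428 and 248.8 against 678 to 1350.2, Rfx3, a transcription factor of ciliary genes, at 342 and 295 against 436 to 707, and the lipid kinase Dgkh at 194 and 327 against 307 to 681. None of the 14 passed in limma, edgeR or DESeq2 in any comparison of all 8 libraries. When KD.253 was left out, which leaves KD.255 alone in the untrained knockdown group, 2 of 14 passed in limma for the knockdown in untrained mice (10.1% of tested genes), 4 for training in knockdown mice (9.72%) and 5 for the interaction (5.46%). After training, 13 of 14 were lower with the control vector (median −0.44) and 13 of 14 higher with the knockdown vector (median 0.50), and the interaction was positive in 14 of 14 (median 1.24). With TMM scaling the first count was 14, and in edgeR the second was 11 and the interaction count 13. Without eGFP.250 the first count was 8 of 14 (median −0.17), without KD.255 the second was 9 of 14 (median 0.10), and without both the interaction was positive in 9 of 14 (median 0.33). For the averaged knockdown 13 of 14 were higher (median 0.19; 14 of 14 in edgeR and DESeq2), against 5 of the 8 markers, and without eGFP.250 it was 6 of 14 (median −0.03). In untrained mice 10 of 14 were lower with the knockdown vector (median −0.36), whereas without KD.255 11 of 14 were higher (median 0.08). In trained mice all 14 were higher (median 0.83), or 13 without eGFP.250 (median 0.40).

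Genes that work with the markers were taken from lists by pathway. Of the C1q-like family and its mossy fibre partners, 5 of 6 were tested and none passed in any comparison, in limma, edgeR or DESeq2. The receptor Adgrb3, to which C1q-like proteins bind, was at 567 to 835 over the 8 libraries, the kainate receptor subunits Grik2 and Grik4 at 171 to 376 and 114 to 202, and the presynaptic Nrxn3 at 924 to 1244. All 5 tested partners were lower after training with the control vector (median −0.34). C1ql1 was at 16.9 to 50.02 and C1ql4 had 0 reads in all 8 libraries. The other bHLH factors Tcf4 (2946 to 3764), Neurod6 (1018 to 1967) and Neurod2 (818 to 1575) spread less between libraries than C1ql2 and Dsp, the widest markers. The markers Neurod1 (125 to 247) and Calb1 (341 to 655) had a range similar in ratio to Neurod6 and Neurod2. Of the bHLH list, 0 of 4 tested passed. The desmosome and plaque partners of Dsp were led by Pkp4 (2167 to 2785), Pkp2 (124 to 193) and Jup (15.6 to 101), and 0 of 6 tested passed. Beyond Tdo2 the kynurenine pathway was near its limit of detection, with 3 of 10 genes tested, Ccbl1 (Kyat1, 0 to 36.6), Afmid (0 to 20.7) and Ccbl2 (Kyat3, 0 to 20.2), and 0 passed.

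The 3 named genes of immature granule cells and neurogenesis were inside their range over the other libraries in eGFP.250. Stmn1, a tubulin regulator, was at 585 there and 386 to 791 elsewhere, Dcx at 108 against 55.3 to 123, and Nes, a stem cell filament, at 87.9 against 66.3 to 124. Over all 12 genes of this list the median log2 ratio to the control mean was 0.23 in eGFP.250. This was the highest of the 8 libraries, against −0.36 to 0.10 elsewhere. Of the 12 genes 10 were tested and none passed. After training with the control vector 8 of 10 were higher (median 0.22), and 8 of 10 were negative in the interaction (−0.34). After training with the knockdown vector 5 were higher and 5 lower (−0.05). In this list Calb2 (calretinin) was at 374 in eGFP.250 and 25.0 to 80.8 elsewhere, and calretinin also marks hilar mossy cells and some thalamic neurons. Of the other calcium-binding proteins, Hpca ranged from 3831 to 12321 and was highest in eGFP.268 and KD.251. Calb1 was at 651 and 586 in these libraries, but its highest value, 655, came from eGFP.250.

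Markers of other cells gave the following values beside these results. The CA1 pyramidal sum was 1477 in eGFP.250 and 1664 in KD.255, inside its range of 1169 to 1841 over the 8 libraries, and all 6 CA1 genes were present in every library. The CA3 sum was 308 in eGFP.250, under its highest value of 395, and 140 in KD.255 with 2 of 5 genes at 0 reads. The thalamic sum was 813 in eGFP.250, against 619 to 864 elsewhere, and all 6 thalamic markers had reads in every library. Their median log2 ratio to the control mean was 0.36 in eGFP.250, the highest of the 8 libraries, against −0.32 to 0.13 elsewhere. The choroid plexus marker Ttr was at 57479 in eGFP.250, 15080 in eGFP.254 and 133 to 1768 elsewhere. Prox1 was lowest in eGFP.250 and highest in eGFP.254. The 7 oligodendrocyte genes, with a sum of 10269 to 26213, and the 6 microglial genes, at 605 to 1316, had reads in every library. After training with the control vector, where the 8 granule markers were lower, 7 of 7 oligodendrocyte genes were higher (median 0.70), while 6 of 6 CA1 genes (−0.36) and 6 of 6 microglial genes (−0.38) were lower. In that comparison 6 of 6 thalamic genes (0.19) and 6 of 6 choroid plexus genes (1.33) were also higher. After training with the knockdown vector 5 of 5 CA3 genes were higher (1.42) and 6 of 7 oligodendrocyte genes were higher (0.30). In the interaction 7 of 7 oligodendrocyte genes were negative (−0.45) and 5 of 5 CA3 genes positive (0.79). Microglial genes were higher in 6 of 6 for the averaged knockdown (0.57), and choroid plexus genes lower in 6 of 6 (−1.79). No gene of these lists passed in limma in any of the 7 comparisons. For the averaged knockdown edgeR called 1 microglial gene, whereas DESeq2 called 2 microglial genes and 1 astrocyte gene. The interferon response sum was 74.5 to 167 in control and 860 to 3821 in knockdown libraries. The 860 was KD.251, the knockdown library with the highest Acss2, against 2100 to 3821 in the other 3. This shallow library also had the highest C1ql3, Lct and Tdo2 of the 8 libraries. The other markers were not highest there, and Neurod1 was second lowest (176). All 10 interferon genes were higher in the averaged knockdown comparison, and 8 of 10 passed in limma. The sum of the 6 granule markers in the knockdown libraries spanned 62.0% to 142% of the control mean. The parts of depth, dissection, other cell types and interferon response in the granule marker values were not tested.

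**Figure D4:**
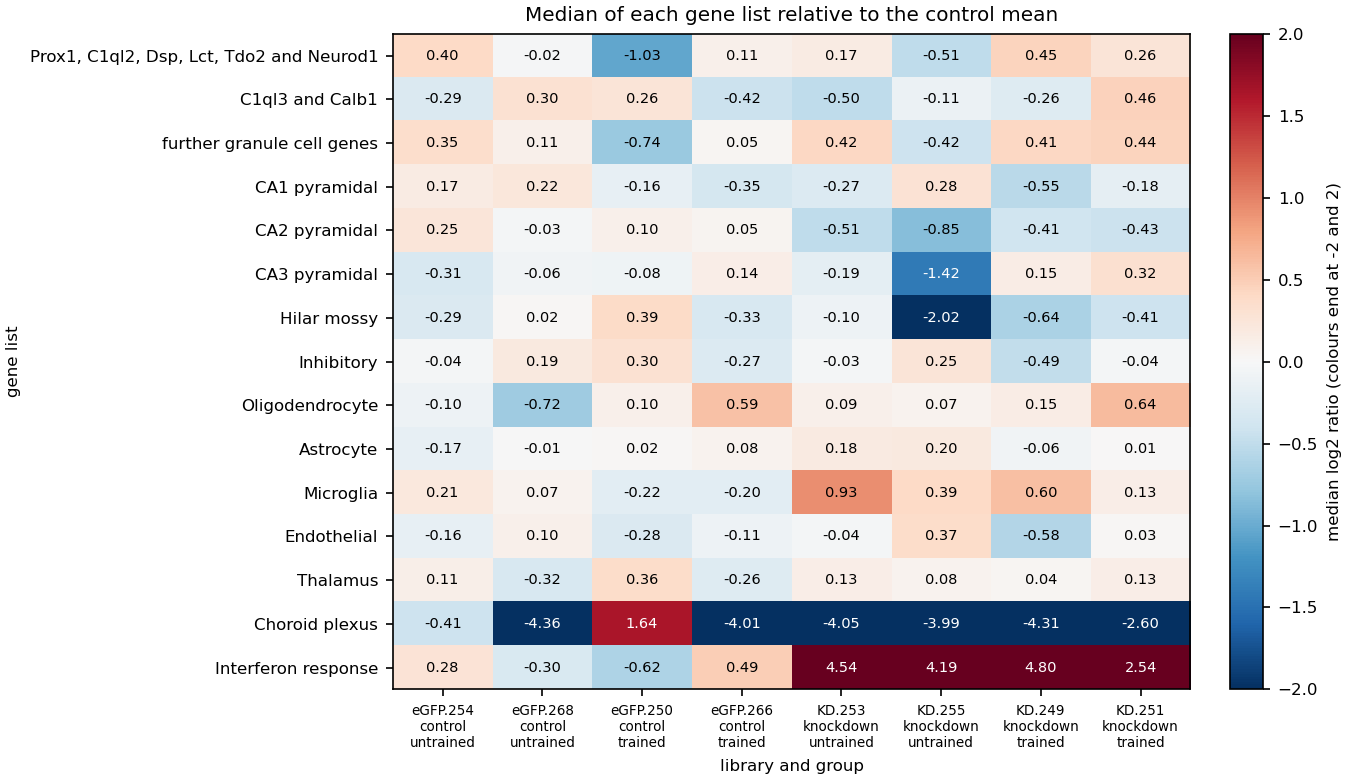
Median log2 ratio to the control mean, on the scale of value + 1, of each gene list (rows) in each library (columns), with colours ending at −2 and 2. The row of Prox1, C1ql2, Dsp, Lct, Tdo2 and Neurod1 is at −1.03 in eGFP.250 and −0.51 in KD.255, the row of C1ql3 and Calb1 at 0.26 and −0.11, and the choroid plexus row at 1.64 in eGFP.250.

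Genes most like the 8 markers were found from the Pearson correlation with the mean log2 ratio of the markers over the 8 libraries, among 4700 genes with a mean of at least 200. They were Lrrtm4 (r = 0.98), a synaptic adhesion protein, Adarb2 (0.98), of the RNA editing enzyme family, the kinase kinase Camkk1 (0.97), the helicase Dhx33 (0.96) and Plppr5 (0.96). Without KD.255 the 5 highest were Ccdc85a, Lrrtm4, Adarb2, Cap2 and Hace1, which shares 2 genes with the first set. The 8 points share the low libraries eGFP.250 and KD.255, and the values are a description of these libraries.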

How the data were processed

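Polyadenylated RNA of 8 dorsal hippocampus libraries (4 groups of 2) was analysed. The submitters' processing notes list mm10 as the build and, as tools, bcl2fastq 02.14.01.07, STAR 2.3.0 (aligner), HTSeq 0.6.1 (counter), DESeq and bedtools. Annotation and strand setting: not given in the sources used here. Each deposited signal value was normalized by the authors, and 100% of the values were whole multiples of 1 unit per library (relative tolerance 1e-06), so whole reads were recovered, and values are called normalized read counts. Of 24503 entries, 5 were summary entries (34.5% to 39.5% of a library's reads), left out of library sizes and tests, and 5869 genes had no read.

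limma 3.58.1 with trend (R 4.3.3) was fitted to log2(value + 1) for 12681 genes with a mean of at least 10, which mostly understates changes of low genes. The 4 group means shared 1 spread (4 residual and 5.13 prior degrees of freedom), and averaged comparisons used an additive model (5 and 4.71). P-values were adjusted over all tested genes (Benjamini-Hochberg), with 0.05 as the threshold. On the recovered reads, edgeR 4.0.16 (quasi-likelihood) and DESeq2 1.42.0 were alternatives. The planned test depended on the unit, and limma was the one set for normalized values. Scripts were tested on simulated data. The 2 libraries of each group exceeded sampling noise in their differences, at a chi-square over degrees of freedom of 26.5 (control, untrained), 36.0 (control, trained), 2.16 (knockdown, untrained) and 10.2 (knockdown, trained). Reads carry no molecular identifiers, so intervals and floors cover counting error only.

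The members and the gene lists were chosen with earlier results of these data known. All 8 members are named, as are the 5 genes most like the members. Of the other lists the plan was to name genes that pass or else the 3 with the highest mean. For granule cell genes and C1q-like partners it was up to 6. The plan was not followed for the calcium-binding list, of which only Hpca and Calb2 are named. The cell type and interferon lists are given mainly as sums, medians and counts. Single genes given for another reason (Calb2, Ttr) were chosen after their values were seen. Gene positions come from GENCODE M21 and promoters from RefSeq, both GRCm38. Alternatives were another pseudocount, other filters, TMM scaling, edgeR, DESeq2, each library left out, both shallow libraries left out, a term for the 2 runs of numbers in the column names (eGFP.266 and eGFP.268 form the upper run), and the lower run alone. What these numbers mean is not given in the sources used here. Leaving out eGFP.250 and KD.255 together was chosen after seeing the data.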

Additional observations from a re-analysis of the deposited data

Results flagged for a closer look

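Lct differed in the direction of its training response between the vectors: both trained control libraries (131 and 265.98) were below both untrained ones (311 and 274), and both trained knockdown libraries (319 and 464) were above both untrained ones (285 and 140). The difference between the responses, 1.58 on the log2 scale (SE 0.58), did not pass in limma (adjusted p 1.00). The value of 140 is from KD.255, where 1 read is worth 15.6 normalized counts. Between the deeper libraries, KD.249 (319, trained) was 1.12 times KD.253 (285, untrained).

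Tdo2 did the same for training, at 10.3 and 29.7 against 36.1 and 34.2 with the control vector and at 40.9 and 46.2 against 27.7 and 31.1 with the knockdown vector. It also did so for the vector, with the untrained knockdown libraries below the untrained control ones and the trained knockdown libraries above the trained control ones. Both are the same interaction, 1.50 (SE 0.74), which did not pass in limma (adjusted p 1.00). The value of 31.1 in KD.255 rests on 2 reads (95% exact Poisson interval 3.77 to 112). Such opposite, non-overlapping training responses (lower in control, higher in knockdown) were seen in 1.14% of tested genes.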

How the results depend on the processing

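No paired analysis was possible because the columns carry none of the labels' replicate numbers. Of the 8 markers' log2 values, 374 kept their direction and side of the threshold under alternatives other than leaving out 1 library and 21 reversed, and with 1 library left out 297 did so, 21 reversed and 2 passed newly. Some of these values were kept by design. Leaving out a library that a single comparison does not use leaves its log2 difference unchanged. Another filter does the same for a gene that stays tested. These counts therefore overstate how stable the values are. They cover the single comparisons and the interaction. The averaged comparisons are outside them, and their signs depended on which libraries entered, as given above. The cause of the reversals was not tested. For the knockdown in untrained mice, Prox1 was at 0.0084 in edgeR, 0.28 without both shallow libraries, 0.034 with the term for column numbers and 0.28 without eGFP.250 and KD.255; Dsp was at 0.042 without the shallow libraries and 0.042 without eGFP.250 and KD.255, Tdo2 at 0.089 with the term, Neurod1 at -0.0019 with TMM scaling and -0.18 in the lower run of column numbers, and Calb1 at 0.19 there. For the knockdown in trained mice, C1ql3 was at -0.13 without the shallow libraries, and Calb1 at -0.029 in edgeR, -0.029 in DESeq2, -0.23 without the shallow libraries and -0.41 in the lower run of column numbers. For training in control mice, C1ql3 was at 0.27 and Calb1 at 0.83 in the lower run of column numbers, and Dsp at 0.39 without eGFP.250 and KD.255, where Prox1 was at -0.10 for training in knockdown mice and -0.066 in the interaction. In the lower run the Calb1 interaction was -0.60. With 1 library left out, Prox1 ranged from -0.45 to 0.32, Dsp from -1.49 to 0.042, Neurod1 from -0.18 to 0.23 and Calb1 from -0.64 to 0.19 for the knockdown in untrained mice. C1ql3 ranged from -0.13 to 0.81 and Calb1 from -0.41 to 0.45 for the knockdown in trained mice. C1ql3 ranged from -0.42 to 0.091, Dsp from -1.14 to 0.39 and Calb1 from -0.43 to 0.42 for training in control mice, Prox1 from -0.10 to 0.60 and Calb1 from -0.056 to 0.53 for training in knockdown mice, and the Calb1 interaction from -0.18 to 0.67.

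The markers' median for the knockdown in trained mice was 1.31 in the lower run of column numbers and 0.33 without eGFP.250 and KD.255 (0.33 to 1.31 with 1 library left out, eGFP.250 and eGFP.266). For averaged training it was -0.37 without the shallow libraries, and for training in control mice -1.26 in the lower run of column numbers (-1.14 to -0.25 without eGFP.266 and eGFP.250). For the interaction it was 0.73 without the shallow libraries, 2.01 in the lower run of column numbers and 0.56 without eGFP.250 and KD.255 (0.80 to 1.78 without eGFP.250 and eGFP.266).

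The number of genes called over the whole table moved more, and no marker was among them except C1ql2 when KD.253 was left out. For the averaged knockdown it was 13 in limma, 122 in edgeR, 195 in DESeq2, 215 without the shallow libraries, 0 with the term, 0 in the lower run of column numbers and 1 without eGFP.250 and KD.255 (1 to 102 with 1 library left out, eGFP.250 and KD.251). For the knockdown in untrained mice it was 0 in limma, 1 with a pseudocount of 5, 23 in edgeR, 55 in DESeq2 and 62 without the shallow libraries. For the knockdown in trained mice it was 1 in limma, 0 with no filter, 0 with a mean of 50, 4 in edgeR, 33 in DESeq2, 74 without the shallow libraries and 2 with the term (0 to 11 without KD.249 and KD.251). DESeq2 called 8 genes for averaged training and 4 for training in control mice. With 1 library left out, 0 to 1279 genes were called for the knockdown in untrained mice, 0 to 1232 for training in knockdown mice and 0 to 692 for the interaction. The highest counts came without KD.253, which leaves the 272456 reads of KD.255 alone and assumes that it varies like the other groups, and C1ql2 was called there in the first and the last. Depth limits Tdo2 most, since 3 reads in KD.255 are worth 46.7 normalized counts, above its value in all 8 libraries.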
